A study of Mus musculus with 2 samples.

Results

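The replication-dependent histone genes were taken as all annotated genes whose symbol begins with Hist1h, Hist2h, Hist3h or Hist4h. There were 70 of them, with 78 transcripts, among 55450 annotated mouse genes, and 3 are annotated as pseudogenes. The symbol gives the gene cluster and the histone class: 6 genes code for the linker histone H1, 20 belong to H2A, 19 to H2B, 12 to H3 and 13 to H4. They were measured by total RNA sequencing of the gastrocnemius, a calf muscle of mainly fast fibres, in 10-day-old male mice of the hybrid strain B6CASTF1/J. The design has 1 group of 2 libraries, 1 per mouse, each from 300 ng of RNA with ERCC spike-in RNAs added. There is no second condition, so no test between groups was made and all differences below are descriptions. By the labels the mice carry separate animal numbers and 1 donor code. The hybrid carries alleles of 2 strains, and the values were made on the mm10 reference. Whether this affects any histone gene was not tested.

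Histones package DNA. Core histones H2A, H2B, H3 and H4 form the nucleosome and H1 binds the DNA where it enters and leaves. The replication-dependent genes are transcribed mainly during DNA synthesis. Most have no introns, and their mRNAs end after a short hairpin, the stem-loop, in place of a poly(A) tail. The stem-loop is bound by Slbp and directs cleavage of the precursor. Muscle fibres have left the cell cycle, while myoblasts, fibroblasts, endothelial cells and blood cells of a growing muscle can divide. In tissue libraries, fewer cells of a type and less RNA per cell cannot be told apart.

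The sequence of the stem-loop set H4 apart from the other classes, and it is shown because mature histone mRNAs usually end just after it. Where the mRNAs ended in these libraries was not measured. A search for 16 bases made of a 6-base stem, a 4-base loop and the pairing 6-base stem, with the letters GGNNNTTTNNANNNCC on the sense strand, found it in 44 of the 70 genes. The same search found it in 27 of 21884 other protein-coding genes, or 0.123%. Examples of each form follow, with the stems in capitals.

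Hist1h1c: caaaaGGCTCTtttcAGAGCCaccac
Hist2h2aa2: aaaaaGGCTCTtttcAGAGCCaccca
Hist1h3c: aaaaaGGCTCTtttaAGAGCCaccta
Hist2h2ac: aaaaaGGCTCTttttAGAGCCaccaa
Hist1h4d: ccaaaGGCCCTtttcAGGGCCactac
Hist1h4h: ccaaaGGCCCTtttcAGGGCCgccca
Hist2h4: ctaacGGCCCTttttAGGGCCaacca
Hist1h4b: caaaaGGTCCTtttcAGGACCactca

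The form of Hist1h1c was the most frequent, in 26 genes of the H1, H2A, H2B and H3 classes and in no H4 gene. The form of Hist1h3c, with another last loop base, occurred in 6 genes, and that of Hist2h2ac in 1. The form of Hist1h4d and Hist1h4h occurred in 7 genes, all H4. The forms of Hist2h4 and Hist1h4b occurred in 2 H4 genes each. The other 26 genes had no match in their annotated transcripts, and 15 of the 70 genes are annotated with no more than 2 bases after the stop codon, which leaves no room for one.

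The annotated transcripts went on past the stem-loop for between 3 and 4884 bases. The extremes were Hist1h2ap and Hist1h4m at the short end and Hist1h1d at the long end. The median gene length was 522 bases, against 2082 for protein-coding genes, and 65 of the 70 genes had a single exon. These lengths enter TPM (transcript abundance scaled by length and library), the unit in which levels are given, because TPM divides a count by the length that reads can start from.

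Promoter sequence also differed by class. Of the 70 genes, 62 matched a RefSeq promoter of their own on GRCm38.p6, which covers 250 bases before the start and 50 after it. The octamer ATTTGCAT, searched on both strands, was in 7 of 18 H2A and 6 of 16 H2B promoters and in none of the 6 H1, 10 H3 and 12 H4 promoters. It was in 1.75% of 27025 promoters of all genes. Of the 10 copies, 7 lay between an H2A and an H2B gene that are transcribed away from each other. For 3 of the 7 both partners had a matched promoter, and the copy was in both. The windows below show 1 such copy read from both sides. They also show the octamer of Hist2h2bb, the highest H2B gene in the deposited gene tables. Octamers and TATAAA are in capitals.

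Hist1h2ae: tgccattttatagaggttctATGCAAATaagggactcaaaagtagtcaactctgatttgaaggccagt
Hist1h2bg: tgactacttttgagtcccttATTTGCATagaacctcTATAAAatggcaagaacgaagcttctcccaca
Hist2h2bb: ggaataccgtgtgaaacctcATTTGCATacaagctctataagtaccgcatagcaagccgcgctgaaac

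They lie at chr13:23571301-23571368 on the minus strand, chr13:23571321-23571388 on the plus strand and chr3:96269632-96269699 on the plus strand. CCAAT, also searched on both strands, was in all 50 matched promoters of H1, H2A, H2B and H3 genes but in 3 of 12 H4 promoters, against 37.9% of all promoters. TATAAA was in 35 of 62, or 56.5%, against 14.2% of all. A match of letters is a description and not a binding site.

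Most of the histone genes were present in both mice. In the deposited gene tables, 65 of 70 reached 1 TPM in both libraries, beside 11317 of 21951 protein-coding genes. Of the 70 histone genes, 54 reached 10 TPM and 9 reached 100 TPM. Their median level was 42.2 TPM ± 0.806 (SD, n = 2), beside 1.36 TPM ± 0.0707 over 21951 protein-coding genes. Their summed expected counts, which share out reads that fit several transcripts, were 67115 in replicate 1 and 64006 in replicate 2. That was 0.174% and 0.169% of the counts of all genes. The 10 genes with the most counts held 46.2% of the mean histone counts.

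The libraries held 38874862 and 38160786 expected counts, of which spike-ins took 0.741% and 0.735%. The muscle label matched its markers: 12 of 12 reached 1 TPM, with a median of 6998 TPM ± 270 (SD, n = 2), led by Acta1 (the actin of skeletal fibres), Mylpf and Myl1 (fast myosin light chains). Of other cell types, markers at 1 TPM in both libraries were 6 of 6 for fibroblasts (led by Col1a1) and endothelium (Cdh5). They were also 6 of 6 for the joint list of satellite cells and myoblasts (Myog). For macrophages (Mrc1) they were 6 of 7 and for erythroid cells (Hba-a1) 5 of 8. They were 0 of 8 for granulocytes and their progenitors and 0 of 8 for lymphocytes.

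**Figure D1:**
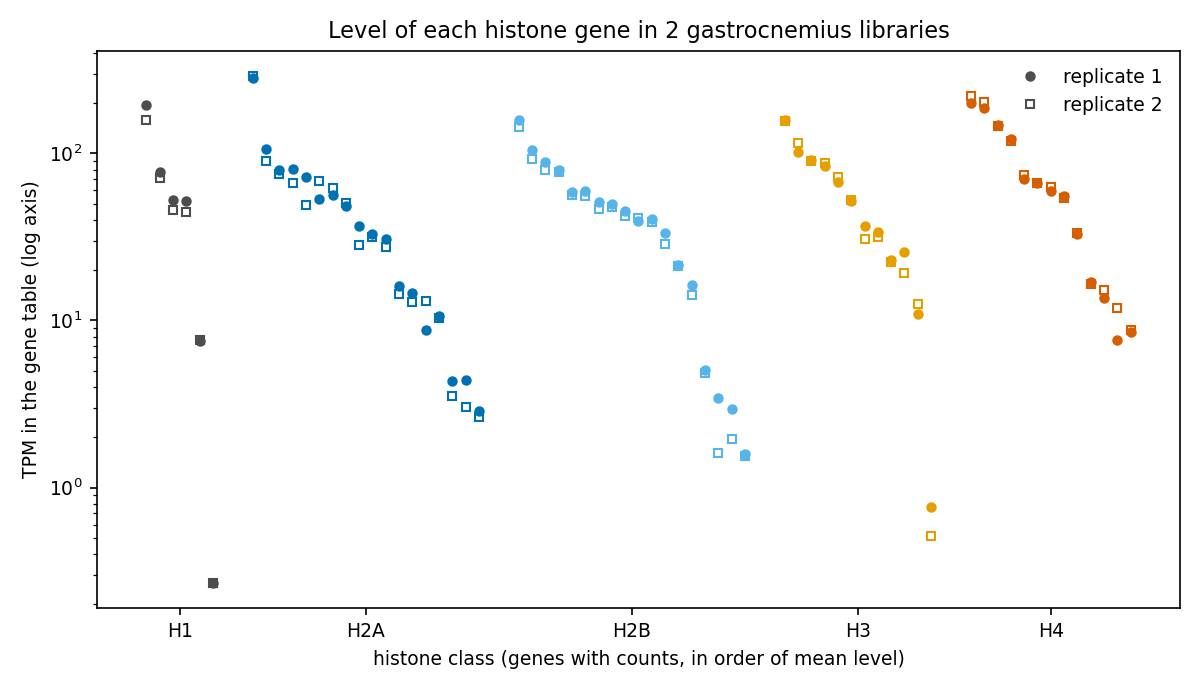
Level in TPM (log axis) of the 67 histone genes with counts, in order of mean level within each class; filled points are replicate 1 and open squares replicate 2. Each class falls over more than 10-fold from its highest to its lowest gene, and the symbols of the 2 mice lie close together for most genes.

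H1 was led by Hist1h1c, whose levels were 195 TPM in replicate 1 and 159 TPM in replicate 2. It lies at chr13:23738808-23740367 on the plus strand and had the highest expected counts of all histone genes, 9246 and 7564. Hist1h1e followed with 77.3 and 71.4 TPM, and Hist1h1a with 52.9 and 45.5 TPM. These 3 were all higher in replicate 1. Hist1h1d had more counts than Hist1h1a, 1796 and 1815, but 7.56 and 7.63 TPM over an annotated 7425 bases. Hist1h1t, the H1 of male germ cells, had 7 expected counts in each library.

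H2A was led by Hist2h2aa2 at chr3:96239749-96240276, minus strand, with 283 and 290 TPM. It had the highest TPM of all 70 genes. Its sequence is repeated whole in the neighbouring Hist2h2aa1, which the same table put at 4.36 and 3.53 TPM. None of the 100-base windows of Hist2h2aa2 was unique among annotated transcripts, so the reads of this pair could not be assigned by sequence alone. Hist1h2ao came next with 106 and 89.7 TPM and Hist1h2ab with 79.5 and 75.2 TPM. The germ-cell gene Hist1h2aa and the pseudogene Hist1h2aj had 0 counts, where 3 counts would be 0.318 and 0.366 TPM in replicate 1. The value of Hist1h2aj is less certain, since 91.7% of its windows are shared with Hist1h2ai. The gene table's own upper bound for Hist1h2aj was 1.64 and 1.58 TPM.

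In the gene table H2B was led by Hist2h2bb with 158 and 143 TPM, Hist1h2bg with 104 and 92.8 TPM and Hist1h2bk with 88.8 and 79.7 TPM. All 3 were higher in replicate 1. They did not lead in the second quantification described below, where Hist1h2bf was the highest H2B gene with 175 and 162 TPM. Hist2h2bb had 88.2 and 80.0 TPM there, and 211 and 196 counts against 1445 and 1305 in the gene table. Hist1h2ba, the H2B of testis, had 0 counts in both libraries, where 3 counts would be 0.325 and 0.324 TPM. H3 was led by Hist2h3b with 158 and 156 TPM, Hist1h3h with 102 and 115 TPM and Hist1h3b with 90.6 and 89.5 TPM. The 4 genes that code for H3.1 (Hist1h3a, Hist1h3g, Hist1h3h and Hist1h3i) held 41.7% ± 1.24 (SD, n = 2) of the H3 TPM, and the 8 that code for H3.2 held the rest. This split was made after the values were seen. H4 was led by Hist1h4h with 201 and 219 TPM, Hist1h4k with 187 and 204 TPM and Hist1h4m with 147 and 146 TPM. The first pair were higher in replicate 2, and the 2 values of Hist1h4m were close.

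The genes outside the large cluster on chromosome 13 had levels from below 1 TPM to the highest of all. The Hist2 cluster on chromosome 3 held 10 genes and 18.0% ± 0.0566 of the histone TPM. Besides Hist2h2aa2, Hist2h2bb and Hist2h3b, its genes had from 0.76 and 0.51 TPM (Hist2h3c1) to 33.6 and 31.7 TPM (Hist2h3c2). Hist2h2ac had 33.0 and 31.4 TPM, Hist2h4 had 17.0 and 16.5 TPM, Hist2h2ab 4.38 and 3.04 TPM and Hist2h2be 1.59 and 1.54 TPM. In the Hist3 cluster, Hist3h2a had 10.7 and 10.3 TPM, Hist3h2ba 3.41 and 1.61 TPM and the pseudogene Hist3h2bb-ps 2.96 and 1.95 TPM. Hist4h4, alone in its cluster, had 8.48 and 8.79 TPM.

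Neighbours that point away from each other and share the space between them often had unequal levels, in an order that depended on the table. There were 15 such pairs with starts within 1000 bases, 14 of them an H2A and an H2B gene. In the 13 pairs where both genes had counts, the median fold between partners was 2.05, and 7 pairs differed by more than 2-fold. In the second quantification described below, 9 of the 13 did, and the order of the partners was turned in 8. Both counts include Hist1h2bq and Hist1h2ao, with only 0.0578 and 0 TPM there. They also include Hist1h2ap and Hist1h2br, where Hist1h2br had 0.117 TPM. Across the 13 pairs the 2 levels had a Spearman rho of 0.44, as a description over genes with similar sequence and length. Hist1h2ae and Hist1h2bg, whose shared octamer is printed above, had 13.7 TPM ± 1.15 and 98.5 TPM ± 8.07 (SD, n = 2), whereas in the second quantification Hist1h2ae had 91.5 and 88.5 TPM and Hist1h2bg 72.1 TPM ± 2.87. Hist1h2ah and Hist1h2bk, with another shared copy, had 60.9 TPM ± 16.6 and 84.2 TPM ± 6.48, and 76.1 TPM ± 7.16 and 54.1 TPM ± 4.25 in the second. The widest gap in the gene table was in Hist2h2ac and Hist2h2be, at 20.6-fold. Hist2h2be is annotated at 2620 bases and Hist2h2ac at 520.

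The make-up by class depended on the unit. By TPM, H4 held 26.6% ± 1.37, H2A 24.2% ± 0.279, H2B 21.8% ± 0.721, H3 18.1% ± 0.466 and H1 9.38% ± 0.839 (SD, n = 2). By expected counts, which are not corrected for length, H1 came first with 25.4% ± 1.64 and H4 second with 22.2% ± 1.35. By TPM the values of H4 and H2A did not overlap between the mice, 25.6% and 27.6% against 24.4% and 24.0%.

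**Figure D2:**
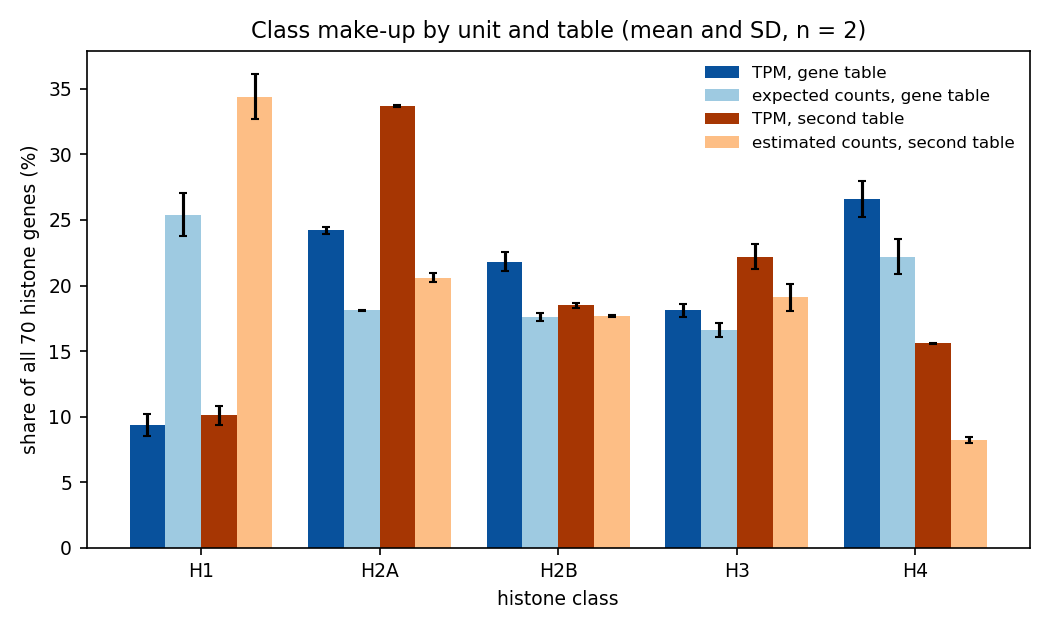
Share of the summed histone signal held by each class, in percent, by TPM and by counts in each of the 2 deposited tables (bars: mean of 2 libraries, whiskers: SD). H1 holds 9.38% by TPM and 25.4% by expected counts in the gene table, and H4 holds 26.6% of TPM there and 15.6% in the second table.

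The same reads had been quantified a second time in transcript tables of another layout, and the histone genes were among those for which the 2 tables differed. With estimated counts summed per gene, histone genes held 44935 and 41289 counts in the second table. Of the 66 with a mean of 20 counts in either table, 32 were over 2-fold lower there in both libraries, against 3.20% of 15452 genes of all kinds. A further 4 were over 2-fold higher, against 4.17% of all genes. The median log2 difference was -1.02 for histone genes and 0.07 for all genes. The second table listed 4 of the 66 at 0 in both libraries; with those and single zeros set to 3 counts the median was still -1.02.

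**Figure D3:**
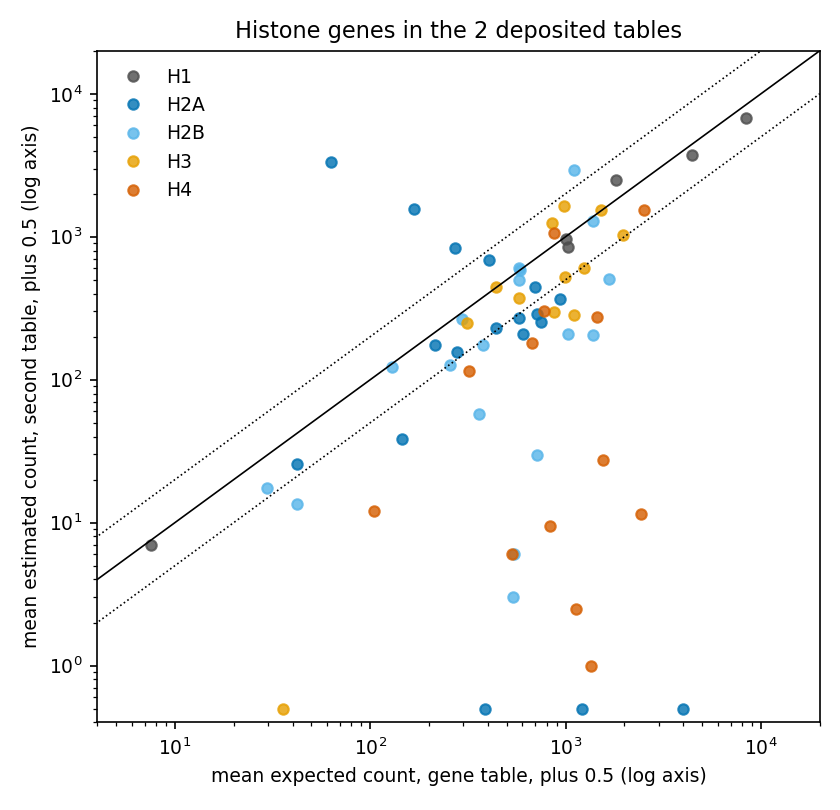
Mean count of each histone gene in the second table against the gene table, both plus 0.5 on log axes; the solid line marks equal counts and the dotted lines 2-fold. H1 genes lie near the line, while H4 genes (dark orange) and several H2A and H2B genes fall far below it.

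Classes differed in this. No H1 gene was past 2-fold, and Hist1h1c had 7637 and 5964 counts in the second table. By contrast 11 of 13 H4 genes were over 2-fold lower, as were 8 of 18 H2A, 9 of 18 H2B and 4 of 12 H3 genes. Summed over the class, H4 went from 14280 and 14837 expected counts to 3611 and 3470 estimated counts. H3 went from 10905 and 10886 to 8259 and 8186.

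Among genes that share sequence, some were lower and others higher in the second table. Hist2h2aa2 went from 3944 and 4036 counts to a listed 0, while Hist2h2aa1 went from 69 and 56 to 3411 and 3301. Together the pair held 4013 and 4091 counts in the gene table, so the sum moved by 1.21-fold. Hist1h2ao went from 1313 and 1110 to a listed 0, while Hist1h2ap went from 457 and 353 to 748 and 621. The pair's sum was 1770 and 1463 counts in the gene table and 2.36-fold lower in the second. Hist1h2ad went from 134 and 200 to 1550 in both libraries, and Hist1h2ae from 285 and 254 to 853 and 816. These 4 genes belong to a group of 11 H2A genes linked through pairs in which at least 50% of the 100-base windows of 1 gene occur in the other. Hist1h2ae is the loosest of the 4, with 69.3% of its windows unique. The group's log2 difference was -0.37. Genes that share most of their windows are uncertain one by one. The posterior SD, the gene table's own error from sharing out reads, was 23.6% of the count for Hist1h2ap, 42.6% for Hist2h2aa1 and 2.87% at the median of the 66 genes.

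Further genes were nearly lost from the second table. Hist1h2bq and Hist1h2br, with 568 and 511 and with 543 and 548 expected counts, had no more than 9 in the second table. Their posterior SDs were 49.9% and 60.8% of the count, since their main transcripts are the same 381 bases. Their H2B group of 5 genes still had a log2 difference of -1.79. The pseudogene Hist1h2al had 374 and 395 expected counts and a listed 0. Hist2h3c1 had 42 and 29 counts and a listed 0. Hist2h3c2, of the same group, went from 1005 and 947 counts to 1649 and 1648, and the overlapping transcript Gm20634, which holds the whole Hist2h3c1 sequence, went from 253 and 231 counts to 738 and 717.

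H4 genes with unique sequence were lower too. All 100-base windows of Hist1h4d are unique, and it went from 2366 and 2497 expected counts to 13 and 9. Hist2h4, also unique throughout, went from 846 and 821 to 10 and 8. Hist1h4f, with 81.8% unique windows, went from 1146 and 1119 to 4 and 0, and Hist1h4k, with 35.7%, from 1291 and 1414 to 1 and 0. Hist1h4h kept more, 2420 and 2641 against 1698 and 1390. Hist1h4a was the one H4 gene with more counts in the second table, 941 and 1180 against 853 and 895.

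Among H4 genes the difference moved with where the stop codon lies in the annotated transcript. In 6 genes the stop codon ended 312 to 320 bases from the annotated start, and they went from 7747 and 7934 counts in all to 78 and 32. In 5 genes it ended at 344 to 351 bases, and they went from 3261 and 3366 to 895 and 869. In Hist1h4h and Hist1h4a it ended at 377 and 385 bases, and their sum went from 3272 and 3537 to 2639 and 2569. Across the 13 H4 genes this distance and the log2 difference had a Spearman rho of 0.88, and across the 51 other genes with a coding part and enough counts 0.57. Within H2A, H2B and H3 it was 0.71, 0.36 and 0.51. Where a gene has several transcripts, the longest distance among them was taken. This put Hist1h2bq and Hist1h2br at 431 and 433 bases and Hist1h2bp at 471. Shorter forms took most of their TPM outside the second table, so the values for H2B and for the other genes together may depend on this choice. Another choice was not tested. Hist1h4h and Hist1h4a are linked by shared windows to Hist1h4k and Hist1h4b, whose stop codons end at 312 and 320 bases. Their group of 5 genes had a log2 difference of -1.04 in all. These are descriptions of one pair of tables, over genes that share sequence, and the ranges were set after the values were seen. The effective lengths of the second table imply mean fragments of 347 and 355 bases, where those of the gene table imply 100. The part of fragment length in the lost counts was not tested.

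**Figure D4:**
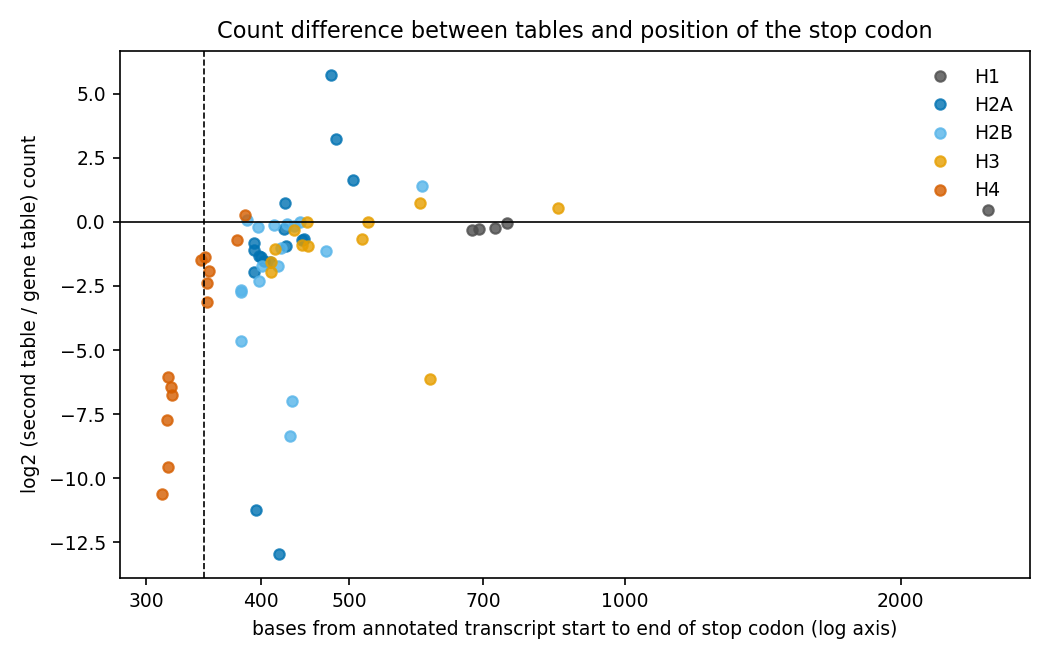
Log2 difference in counts (second table over gene table, mean of 2 libraries, with 0.5 added) against the number of bases from the annotated start to the end of the stop codon (log axis) for 64 histone genes; the dashed line marks 347 bases, the fragment length implied for replicate 1. The 6 H4 genes (dark orange) at 312 to 320 bases lie lowest among H4, and low points to the right of the line include H2A and H2B genes with identical copies. Genes with several transcripts are placed at the longest of their distances.

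In TPM, which divides by effective length, the median histone gene was higher in the second table among genes above 0 in both tables. This leaves out genes at 0 TPM there in either library, such as Hist2h2aa2, Hist1h2ao, Hist1h4k and Hist1h4f, which were all lower in the second table. The 61 genes above 0 in both tables and both libraries had a median log2 TPM difference of 0.54. The median was -0.18 when both tables were rescaled over protein-coding genes. For each gene the unscaled difference is the sum of a count part, a length part and a scale part. The medians of these parts were -0.91, 1.07 and 0.31, and medians need not add up. The effective length of Hist1h4m was 303 bases for the gene table against 102 for the second, a ratio of 2.97. That of Hist1h1c went from 1461 to 1214, a ratio of 1.20. H4 still held less of the histone TPM in the second table, 15.6% ± 0.0460, and H2A held more, 33.7% ± 0.0792. The order of genes by TPM had a Spearman rho of 0.36 between the tables and 0.99 between the mice within either table. In the second table, 55 of 70 genes reached 1 TPM in both libraries, and the 10 that reached it in the gene table alone included Hist2h2aa2, Hist1h4k, Hist1h4f and Hist1h4d.

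Among genes with several annotated transcripts, Hist1h2be stood out. It went from 1168 and 1035 expected counts to 3122 and 2748 estimated counts. Its spliced transcripts Hist1h2be-201 and Hist1h2be-202 both hold the stem-loop. In the RSEM-layout tables they took 42.3% and 54.7% and 14.0% and 7.23% of the gene's TPM, and the unspliced Hist1h2be-203 took 43.7% and 38.0%. In the second table Hist1h2be-201 took 80.8% and 83.3%. Hist1h2be overlaps Hist1h1e on the same strand, and reads from the overlap cannot be told apart. Hist1h2be-203 shares 17.6% of its 100-base windows with Hist1h1e, and it went from 458 and 350 counts to 505 and 385. The gain was in Hist1h2be-201, which went from 534 and 606 counts to 2618 and 2364. Of the windows of Hist1h2be-201, 89.7% are unique. In Hist1h2bp the short form took 99.1% and 99.0%, and 96.6% and 97.0% in the second table. In Hist1h2bq and Hist1h2br the 381-base forms took at least 98.4% in the RSEM-layout tables but no more than 0.928% of the little that was left in the second. On the opposite strand, 23 histone genes overlap an annotated gene, none of which had more than 98.0 expected counts. The sources used here do not state whether reads were counted by strand.

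Between the mice the histone genes differed about as little as genes in general. The log2 ratio of replicate 2 over replicate 1, after TMM scaling (which centres the libraries on the bulk of genes), had a median of 0.02 over the 66 genes with a mean expected count of 20, and 0.01 over all genes. The median size of the ratio, without its sign, was 0.10 for histone genes and 0.13 for all genes. No histone gene was past 2-fold, where 0.539% of 14667 genes were over 2-fold higher in replicate 2 and 1.21% over 2-fold lower. For 66 genes, none past 2-fold is close to these shares. The summed histone counts had a log2 ratio of 0.00, with an exact binomial 95% interval of -0.01 to 0.02 that covers counting error only. The lowest ratio was that of Hist3h2ba, with 57 and 27 counts, a log2 ratio of -0.99 with an interval of -1.73 to -0.32. Next were Hist3h2bb-ps at -0.53 and Hist1h2ah at -0.49. The highest ratios were 0.69 in Hist1h4n, 0.65 in Hist1h2ad and 0.44 in Hist1h2ai, whose posterior SDs were 43.1%, 14.4% and 13.1% of their counts.

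**Figure D5:**
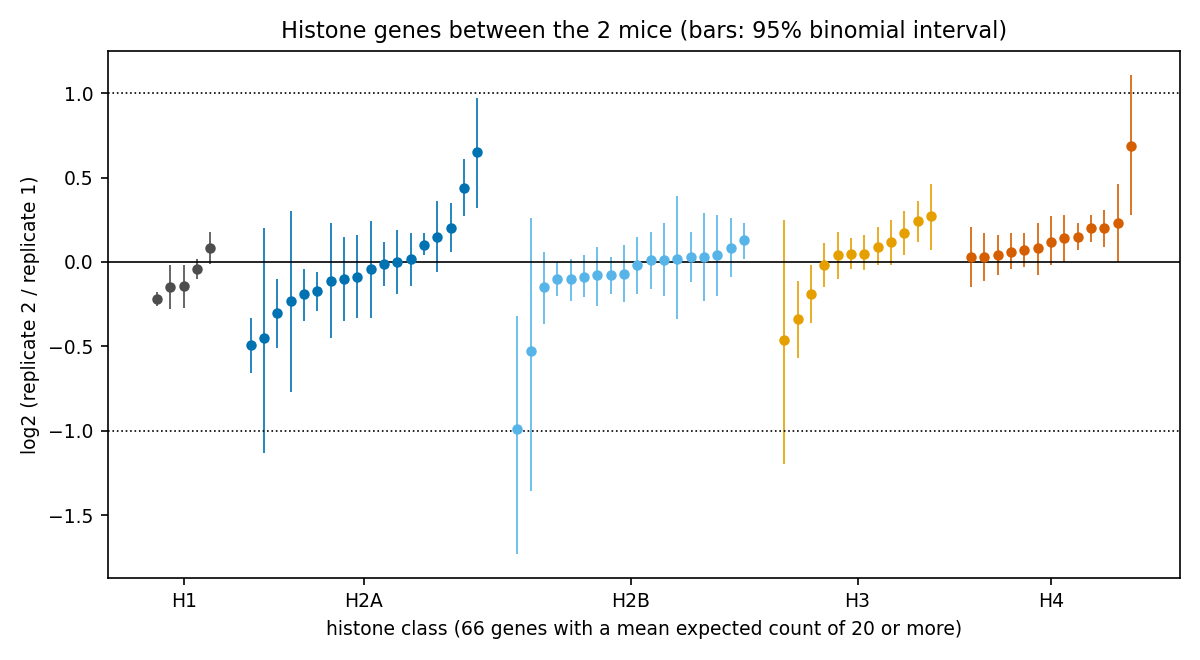
Log2 ratio of replicate 2 over replicate 1 for 66 histone genes by class, with exact binomial 95% intervals of counting error; the dotted lines mark 2-fold. All 13 H4 points lie above 0 and 4 of 5 H1 points below it, and all 66 lie inside the dotted lines.

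The classes were not centred alike. After TMM scaling, 7600 of 14667 genes of all kinds were higher in replicate 2 and 7067 were lower. All 13 H4 genes were higher in replicate 2, with log2 ratios of 0.03 to 0.69, but 10 of 13 when scaled by library totals, 11 of 13 by spike-in totals and 4 of 7 with enough counts in the second table. H1 was lower in 4 of 5 genes under each of these scalings, with a summed log2 ratio of -0.13 and an interval of -0.16 to -0.10. That of H4 was 0.13 with an interval of 0.09 to 0.16, over genes of which several share sequence. Beside this, all 6 measured erythroid markers were higher in replicate 2, at a median log2 ratio of 0.86, with a summed level of 1139 and 2083 TPM. Of 12 mitosis genes 11 were lower there, at a median of -0.18, and of 30 DNA replication genes 20 were lower, at -0.04. None of the mitosis or DNA replication genes was past 2-fold, beside 0.539% of all genes over 2-fold higher and 1.21% over 2-fold lower. The part of blood cells or dividing cells in the class differences was not tested.

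Lists of histone mRNA factors, histone chaperones, DNA replication genes and mitosis genes had lower median levels than the histone genes, whose median was 42.2 TPM. The medians were 10.4 TPM for chaperones, 3.91 TPM for DNA replication and 4.34 TPM for mitosis, and that of the factors follows. This holds for medians and not for every gene, since the chaperone gene Nap1l4 was above the histone median. Of 14 factors for transcription and end processing of histone mRNA, 13 reached 1 TPM in both libraries, at a median of 4.50 TPM ± 0.255 (SD, n = 2). Slbp, the stem-loop binding protein, had 7.60 and 7.47 TPM. Npat, which activates histone transcription, had 2.71 and 2.70 TPM, and Lsm11, a part of the U7 particle that directs cleavage, 1.76 and 1.82 TPM. The highest of this list were Srrt, Sympk and Upf1 at 23.2, 17.2 and 15.1 TPM. Of 31 DNA replication genes 28 reached 1 TPM, led by Pcna, Rrm1 and Mcm7 at 17.4, 10.0 and 7.82 TPM. All 12 mitosis genes did, led by Top2a, Mki67 and Cdk1 at 13.1, 10.5 and 9.09 TPM, as did all 14 histone chaperones, led by Nap1l4, Anp32e and Nap1l1 at 70.6, 42.0 and 26.5 TPM.

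Of 15 histone variants made outside DNA replication, 11 reached 1 TPM in both libraries, and their levels summed to 601 and 586 TPM against 3859 and 3742 TPM for the 70 histone genes. H3f3a, which codes for H3.3, had 251 TPM ± 10.7, more than any single replication-dependent H3 gene, H3f3b had 106 TPM ± 1.48 and H1f0 had 83.5 TPM ± 10.7 (SD, n = 2). Unlike the replication-dependent genes, the variants had a median log2 difference between the tables of -0.00. None of the 11 variants with enough counts was past 2-fold between the mice, beside 0.539% of all genes over 2-fold higher and 1.21% over 2-fold lower.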

How the data were processed

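Per gene and per transcript, the authors deposited expected counts and TPM with their posterior means (RSEM layout), and the percent of a gene's TPM taken by each transcript, made on mm10 with GENCODE M21 per the accompanying notes. A further deposited transcript table, in kallisto's layout, gives estimated counts with TPM. The sources used here name no aligner, program version or use of strand.

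Genes were matched by identifier, and the counts of the second table were summed over transcripts. Expected counts were rounded, scaled with TMM in edgeR 4.0.16 (R 4.3.3) over endogenous genes averaging at least 10 counts, and given 0.5 as a prior count. A ratio was read where the mean was 20 or more, with 95% exact binomial intervals. Reads without molecular identifiers are not independent, so intervals cover counting error only. A difference between tables was called past 2-fold in the same direction in both libraries. The ratio was tested on simulated data.

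Window uniqueness used 100-base windows of all annotated transcripts, and promoters came from RefSeq (GRCm38.p6). For symbols with several genes the one with the highest mean count was used. Alternatives included DESeq2 1.42.0 size factors, other scalings, filters and units, and 2 were added after seeing the data. Named are the 3 highest genes of each class, the small clusters, the 5 largest and smallest differences between tables and the 3 between mice. Also named are genes with several transcripts, germline genes and the 3 highest of the muscle, variant, factor, chaperone, DNA replication and mitosis lists. Of the lists of other cell types no more than the highest gene was named. Other genes were chosen after their values were seen. The members, lists and rules were chosen with earlier results of these data known.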

Additional observations from a re-analysis of the deposited data

How the results depend on the processing

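No paired analysis was possible because the labels give 1 group only. Of 85 alternative values, 59 stayed within the spread between the mice or 1.5 times a count, 23 moved and 3 changed sign. The median log2 ratio between mice was 0.02 and became -0.02 with library totals and -0.01 with spike-in totals, and the ratio of summed counts became -0.04 and -0.03. Under both, 1 gene passed 2-fold, Hist3h2ba. With the second table's counts 1 gene passed, Hist1h4c with 41 and 13 counts, and the summed ratio was -0.02. The median log2 count difference between the tables was -0.95 with no filter on low counts, -0.78 when genes that share 50% of their windows were summed (15 lower and 1 higher among 41 groups) and -0.83 without H4 genes (21 lower). Without 1 replicate it was -1.05 to -1.00, with 33 to 35 genes lower and 4 higher. The median log2 TPM difference of 0.54 turned to -0.18 when TPM was rescaled over protein-coding genes in both tables, which removes the 7SL RNAs that take 150024 TPM each in the gene table (Rn7s1, Rn7s2), and was 0.46 to 0.58 without 1 replicate. The summed TPM of 3800 became 4924 in the second table and 7927 after rescaling, and 3742 to 3859 without 1 replicate. In the second table H2A, H2B, H3 and H4 held 33.7%, 18.5%, 22.2% and 15.6% of TPM. By expected counts H1, H2A, H2B, H3 and H4 held 25.4%, 18.1%, 17.6%, 16.6% and 22.2%. Without 1 replicate the shares by TPM were 8.79% to 9.98%, 24.0% to 24.4%, 21.2% to 22.3%, 17.7% to 18.4% and 25.6% to 27.6%, and 65 genes reached 1 TPM. Except where stated, the cause was not tested. Depth limits what can be said of genes with few counts, such as Hist1h1t, Hist1h2aa, Hist1h2ba and Hist3h2ba.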
